A study of Mus musculus with 13 samples.

Results

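The response of splenic B cells to stimulation through the B cell receptor (BCR) was compared between Regnase-1-deficient and control cells, with each unstimulated library serving as the baseline of its stimulated partner. Of 13 RNA-seq libraries 12 entered the comparison, as 6 pairs of an unstimulated and a stimulated library with the same number, 3 pairs of each genotype. Control unstimulated library 4 has no stimulated partner and was left out. Deficient cells had the genotype Regnase-1 f/f hCD20TamCre and control cells Regnase-1 +/+ hCD20TamCre, so both carried the Cre transgene, whose name denotes a tamoxifen-regulated recombinase under the human CD20 (B cell) promoter. Cells were taken from spleen by depleting CD43-bearing cells on beads, and stimulated cells received anti-IgM F(ab')2 for 4 hours, while their partners were untreated. Age, sex and tamoxifen schedule are not given in the sources used here. The labels do not say that a number marks 1 animal, so p-values measure the spread between these samples, which may be technical. For each pair and gene the log2 level of the unstimulated library was subtracted from that of the stimulated one, and the 3 deficient differences were set against the 3 control differences. Genes whose adjusted p (Benjamini-Hochberg) was under 0.05 in edgeR's quasi-likelihood test are termed called, and all values below named "difference of responses" are log2, deficient minus control, ± SE.

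Regnase-1, encoded by Zc3h12a, is an endoribonuclease that shortens the life of mRNAs by cutting at stem-loops in their 3' untranslated regions, and it acts mainly on transcripts of immune activation. The BCR signals through Syk, Btk and phospholipase C to calcium, ERK and NF-kB. MALT1, a protease on the NF-kB branch, is led by antigen receptor signals in T cells to cleave Regnase-1. Batf, Nfkbiz, Icos and Il6 are among the transcripts reported as Regnase-1 targets.

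To show what such an element looks like in the genes discussed here, the longest annotated 3' untranslated region of each gene was searched on the transcript strand for a stem of at least 5 Watson-Crick pairs closing a loop of 3 bases, pyrimidine-purine-pyrimidine, that is T or C, then A or G, then T or C. The lines below give the enzyme's own transcript, the reported target Nfkbiz, and 4 genes whose BCR response differed between genotypes, 5' to 3' as DNA letters, with the loop in capitals.
Zc3h12a: gatacaCATtgtatc
Nfkbiz: ttgtttcTATgaaacaa
Bcl2: taaatTGTattta
Ppp1r3b: tcaaaTGTtttga
Trib1: tgtatcTGTgataca
Lfng: ttccagTATctggaa
In mm10 these lie at chr4:125119069-125119083 (minus strand) for Zc3h12a, chr16:55812613-55812629 (minus strand) for Nfkbiz, chr1:106541462-106541474 (minus strand) for Bcl2, chr8:35386376-35386388 (plus strand) for Ppp1r3b, chr15:59656390-59656404 (plus strand) for Trib1 and chr5:140615314-140615328 (plus strand) for Lfng. Such a stem-loop was present in 25.8% of 11525 tested genes with an annotated 3' untranslated region, at 0.187 per kb. It was present in 50% of 18 reported targets (0.692 per kb). Batf, a reported target called below, held no such stem-loop in this search. Of the genes called for the difference of responses below, 13 of 46 with a positive difference (28.3%, 0.156 per kb) and 7 of 19 with a negative one (36.8%, 0.310 per kb) held one. These matches are descriptions of sequence, and were not tested as sites.

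Library totals ran from 21407729 to 33244762 counts, and 3 counts stood for 0.0902 to 0.140 CPM (reads scaled to library size, TMM-normalized). B cell markers summed to 6275 to 7378 CPM in the unstimulated deficient and 6612 to 7322 CPM in the unstimulated control libraries, and to 3349 to 3664 and 3381 to 3568 CPM after stimulation. T cell markers summed to 37.3 to 125 CPM over all 12 libraries, with Cd3e, part of the T cell receptor complex, at 0.248 to 4.76 CPM. Myeloid markers varied between pairs. The sum of neutrophil markers was 467 CPM before and 315 CPM after stimulation in deficient pair 1 and 273 and 180.3 CPM in control pair 3, against 32.3 to 111 CPM in the other 4 pairs. Monocyte and macrophage markers were highest in the same pairs (878 and 609 CPM, and 782 and 545 CPM), against 331 to 526 CPM elsewhere. Without deficient pair 1 the test described below called 73 genes, 55 of the 67 reported among them, and without control pair 3 it called 48, with 40 among them. The log2 ratio of summed markers within a pair overlapped between genotypes for 9 of 10 marker lists. The exception was the plasma cell and B-1 list, 7 genes with detected reads, at 1.90, 1.98 and 1.99 in deficient and 2.08, 2.15 and 2.33 in control pairs, and it includes Irf4, Prdm1 and Xbp1. Erythroid markers lay below 0 in 7 of 7 tested members for the difference of responses (median -0.33; 0 called by edgeR, DESeq2 or limma voom, 1 at an unadjusted p under 0.05). Their sums ranged from 379 to 1696 CPM in unstimulated and 867 to 2079 CPM in stimulated deficient libraries, against 534 to 854 and 1044 to 1303 CPM in control. The erythroid list includes Tfrc, the transferrin receptor gene, which stimulation raised in both genotypes. Tfrc alone stood at 724, 794 and 717 CPM in stimulated control libraries. In stimulated deficient libraries it stood at 824, 727 and 735 CPM. The part of erythroid and of the other marked cells in the differences below was otherwise not tested. In bulk libraries, fewer cells of a type and less RNA per cell cannot be told apart.

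Zc3h12a itself (chromosome 4, 125118423 to 125127840, minus strand, mm10) was read first. It stood at 123, 129.9 and 120.4 CPM in unstimulated and 156, 155 and 146 CPM in stimulated control libraries 1 to 3. Deficient libraries held 88.8, 99.0 and 110.2 CPM before and 92.0, 102 and 112 CPM after stimulation. In each state the highest deficient value was under the lowest control value. A count per gene also takes reads from exons outside the deletion, so these levels check the genotype labels only in part. The transcript rose in control cells (0.29 log2, 1.22-fold), while the deficient response was 0.04 (adjusted p = 0.498). The pair values did not overlap, at 0.34, 0.25 and 0.28 in control and 0.05, 0.04 and 0.02 in deficient pairs, but the difference of responses, -0.25 ± 0.07, did not pass the test (adjusted p = 0.152). For Zc3h12a the difference did pass with DESeq2's size factors in edgeR (-0.28, adjusted p = 0.0469), with upper-quartile factors (adjusted p = 0.0471) and in DESeq2 with the block (adjusted p = 0.0379), and not in limma voom (adjusted p = 0.128).

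BCR stimulation changed most of the transcriptome in both genotypes. Of 13468 genes tested, 3994 rose (29.7%) and 4858 fell (36.1%) in control pairs, 65.7% in all. In deficient pairs 4182 rose (31.1%) and 4720 fell (35%), 66.1% in all. Across genes, which are not independent replicates, the deficient response followed the control response with r = 0.90 and a slope of 0.91. Against that shared program 67 genes, 0.497% of those tested, had a response that differed between the genotypes by edgeR's test of the counts. The difference was positive for 48 (0.356%) and negative for 19 (0.141%), and 1007 genes had an unadjusted p under 0.05. With DESeq2's size factors in the same test the split was 58 and 57, and with upper-quartile factors 54 and 50, so the preponderance of positive differences depended on the scaling. Limma on the pair differences of log2 CPM called 0 genes (smallest adjusted p 0.485), and on those of the deposited log2 values it called 1. The calls thus depended on the test used.

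**Figure D1:**
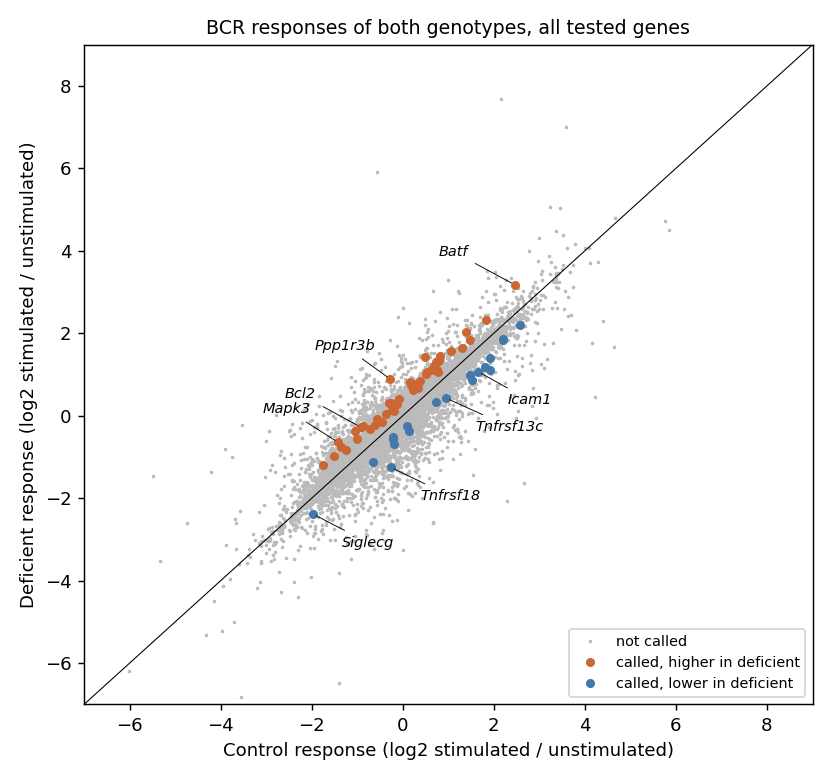
Each point is a tested gene, with the log2 response to BCR stimulation of the 3 control pairs on the horizontal axis and that of the 3 deficient pairs on the vertical axis; the line marks equal responses. The 48 genes called higher (orange) and 19 called lower (blue) in deficient cells lie close to the line beside the 13468 genes tested, with differences of at most 1.17 log2.

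The differences were modest in size. Among the 67 genes the size ran from 0.30 to 1.17 log2, with 17 past 1.5-fold (12 positive, 5 negative) and 1, Ppp1r3b, past 2-fold. The median was 0.50 for the positive and -0.47 for the negative genes, against 0.03 over all genes tested. In all 67 the 3 deficient pair values lay wholly above or below the 3 control pair values, as they did for 13.6% of all tested genes (1835; 8.31% above and 5.32% below). The calls were made on those same pairs.

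The 48 positive differences came about in several ways. Stimulation raised 24 of these genes in both genotypes, further in deficient cells, and lowered 13 in both, less in deficient cells. Another 6 fell in control and rose in deficient pairs, namely Cdc27, Kremen1, Pxn, Ranbp9, Rictor and Tgfbr2. Egln2, Fth1 and Zfp217 fell in control pairs without a called change in deficient ones, and Nek7 and Ppp1r3b rose in deficient pairs without a called change in control ones. Of the 19 negative differences, 11 rose in both genotypes, less in deficient cells, and 5 fell in both, further in deficient cells. Abr and Tnfrsf18 fell in deficient pairs only by the test in each genotype, and Malt1 rose slightly in control and fell in deficient pairs. Stimulated levels of the 2 genotypes did not overlap for 61 of the 67 genes (17.9% of all tested genes), and unstimulated levels for 28 (14.3%). For 36 genes the levels were separated in stimulated cells alone, for 3 in unstimulated cells alone, for 25 in both and for 3 in neither. The 3 separated in unstimulated cells alone were Plk2, Stat3 and Tgfbr2, each lower in deficient cells.

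Among transcription factors, Batf (chromosome 12, 85686669 to 85709087, plus strand), an AP-1 family factor of activated lymphocytes and a reported Regnase-1 target, was induced more strongly in deficient cells. Control libraries held 8.68, 9.10 and 9.45 CPM unstimulated and 46.1, 54.3 and 49.4 CPM stimulated. Deficient libraries held 12.7, 12.5 and 14.9 CPM and 112, 125 and 124 CPM. Levels of the genotypes were separated in both states, and more widely after stimulation. The rise was 5.49-fold in control and 9.04-fold in deficient pairs, a difference of responses of 0.72 ± 0.11 (adjusted p = 0.00274). The single pairs of control cells gave 2.40, 2.57 and 2.38 log2, and those of deficient cells gave 3.14, 3.31 and 3.06.

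Zeb2, a zinc finger transcriptional repressor, also rose further in deficient cells (0.39 in control and 0.83 in deficient pairs; 0.44 ± 0.07, adjusted p = 0.00370). Stat3, the transcription factor downstream of IL-6, IL-10 and IL-21 receptors, rose by 0.77 in control and 1.07 in deficient pairs (0.30 ± 0.06, adjusted p = 0.0374). Mllt6, a chromatin reader that binds the histone methyltransferase DOT1L, rose by 0.15 in control and 0.81 in deficient pairs (0.66 ± 0.08, adjusted p = 0.000653). Of these, Mllt6 had the smallest response in control cells. Bcl3, an atypical IkB protein that binds NF-kB p50 and p52, fell less in deficient pairs (-1.51 in control and -0.99 in deficient pairs; 0.53 ± 0.10, adjusted p = 0.0445). Zfp608, a zinc finger gene of little-known function, fell less as well (-1.36 in control and -0.75 in deficient pairs; 0.60 ± 0.08, adjusted p = 0.000685). Stat3's call ended without deficient pair 1 or 2 or control pair 1, 2 or 3 (adjusted p up to 0.236), and that of Bcl3 without deficient pair 1 or 2 or control pair 1 or 2 (adjusted p up to 0.264). In the list of 28 tested B cell identity and fate factors, edgeR called Batf and Zeb2 higher and none lower, with a median of 0.05. DESeq2 called 7 members and voom 3, and 12 had an unadjusted p under 0.05 in edgeR. Over all 13468 tested genes edgeR called 67 (0.497%), DESeq2 144 and voom 96, and 1007 had an unadjusted p under 0.05 in edgeR. In that list Foxp1, a resting B cell factor, was next by p (0.04 in control and 0.32 in deficient pairs; 0.28 ± 0.07, adjusted p = 0.0815 in edgeR), and DESeq2 and voom called it (adjusted p = 0.0264 and 0.0249).

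Among survival genes, Bcl2 (chromosome 1, 106538178 to 106714274, minus strand), the anti-apoptotic protein of the outer mitochondrial membrane, fell less after stimulation in deficient cells. In control libraries it went from 30.9, 27.4 and 26.8 to 16.2, 12.6 and 16.3 CPM. In deficient libraries it went from 36.7, 43.0 and 43.3 to 33.1, 38.2 and 29.9 CPM. Deficient levels thus lay above control levels in both states, and the gap widened. The fall was to 0.528 of the unstimulated level in control and to 0.823 in deficient pairs (0.64 ± 0.13, adjusted p = 0.0321). Its call ended without deficient pair 1 or 2 or control pair 1 or 2 (adjusted p up to 0.236). Of 15 BCL2 family genes tested edgeR called Bcl2 alone, beside 0.497% of all tested genes, and the list's median was 0.02. Bbc3, which encodes the pro-apoptotic BH3 protein PUMA, had -0.64 in control and -0.23 in deficient pairs (0.42 ± 0.12, adjusted p = 0.221). The Bcl2a1d row, an A1 gene with near-identical copies whose reads may be split, had a difference of -0.39 ± 0.13, adjusted p = 0.360.

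Tnfrsf13c (chromosome 15, 82221743 to 82224369, minus strand) encodes the BAFF receptor, through which mature B cells receive their survival signal, and it moved the other way. Control libraries held 263, 304 and 272 CPM unstimulated and 531, 569.9 and 527 CPM stimulated. Deficient libraries held 268, 307 and 312 CPM and 380.4, 407 and 397 CPM. Unstimulated levels overlapped, and all stimulated deficient libraries lay below all stimulated control libraries. The rise was 1.94-fold in control and 1.34-fold in deficient pairs (-0.54 ± 0.07, adjusted p = 0.000653).

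**Figure D2:**
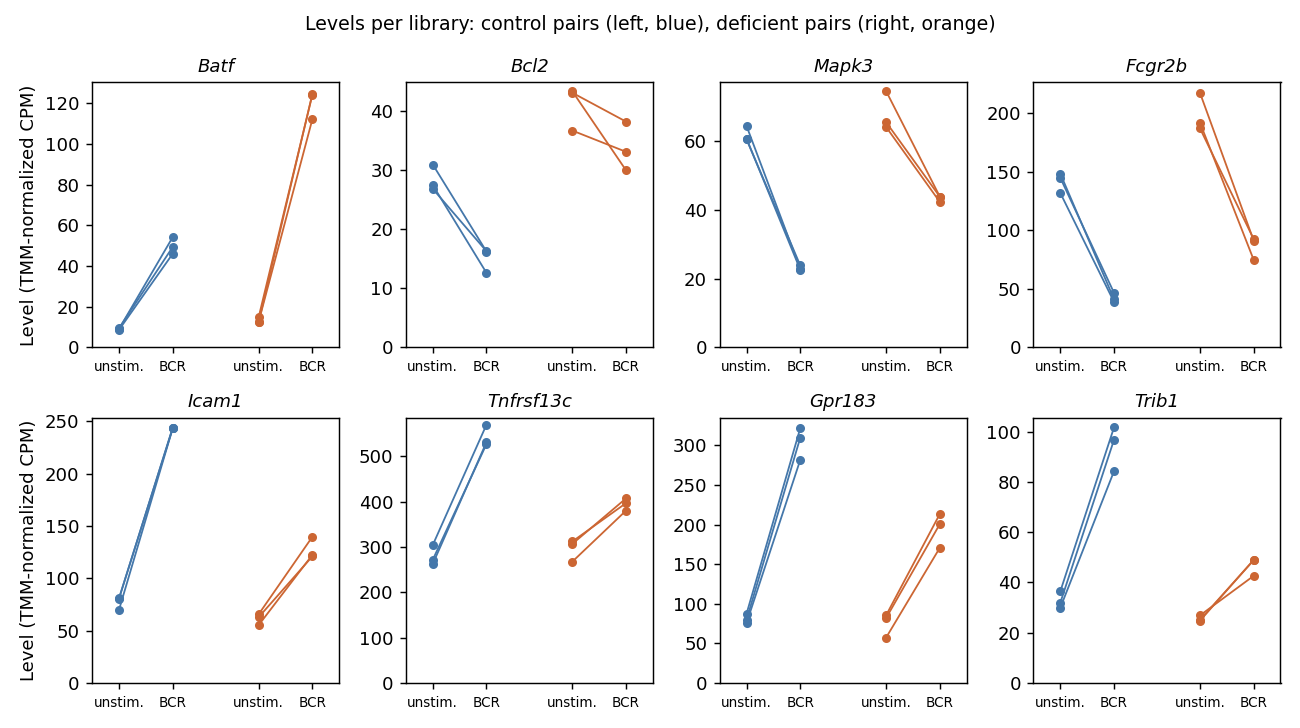
Levels (TMM-normalized CPM, each axis from 0) of 8 called genes in the 12 libraries; a line joins the unstimulated and the BCR-stimulated library of a pair, control in blue and deficient in orange. Batf, Bcl2, Mapk3 and Fcgr2b end higher in stimulated deficient libraries than in any stimulated control library, and Icam1, Tnfrsf13c, Gpr183 and Trib1 end lower.

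In the ERK pathway, Mapk3 (chromosome 7, 126759601 to 126765819, plus strand), which encodes ERK1, fell on stimulation, and less so in deficient cells. Control levels were 60.4, 60.7 and 64.3 CPM unstimulated and 23.8, 22.6 and 22.8 CPM stimulated. Deficient levels were 65.4, 64.0 and 74.4 CPM and 43.8, 42.3 and 43.8 CPM. The unstimulated ranges overlapped, and the stimulated ones did not. The level fell to 0.374 of its unstimulated value in control and to 0.639 in deficient pairs (0.77 ± 0.09, adjusted p = 0.000653). Ksr1, a scaffold of RAF, MEK and ERK that was picked after its values were seen, rose further in deficient cells (1.05 in control and 1.56 in deficient pairs; 0.51 ± 0.08, adjusted p = 0.00508). Its call ended without deficient pair 2 (adjusted p up to 0.0538).

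Trib1 (chromosome 15, 59648350 to 59657099, plus strand), a pseudokinase that binds MEK1 and the COP1 ubiquitin ligase, was induced less in deficient cells. Its level was 29.9, 31.9 and 36.5 CPM in unstimulated and 84.3, 96.8 and 102 CPM in stimulated control libraries. It was 24.7, 26.8 and 25.1 CPM and 49.0, 42.6 and 48.8 CPM in deficient libraries. Deficient levels lay below control levels in both states. The rise was 2.88-fold against 1.82-fold (-0.66 ± 0.10, adjusted p = 0.00307). Trib1 was the only called member among 16 tested ERK feedback phosphatase and Sprouty genes (median -0.09). Spred1, an inhibitor of RAS to ERK signalling, had 1.76 in control and 1.23 in deficient pairs (-0.52 ± 0.17, adjusted p = 0.297). Its relative Trib2 had -0.03 in control and 0.30 in deficient pairs (0.32 ± 0.09, adjusted p = 0.227). No immediate early gene was called of 24 tested (median 0.03) by edgeR, DESeq2 or limma voom, and 7 had an unadjusted p under 0.05. Over all 13468 tested genes edgeR called 0.497%, and 1007 had an unadjusted p under 0.05. Ier5, the nearest by p, had 0.04 in control and 0.26 in deficient pairs (0.22 ± 0.06, adjusted p = 0.192), Jun 0.04 in control and 0.37 in deficient pairs (0.33 ± 0.11, adjusted p = 0.325) and Atf3 1.68 in control and 2.07 in deficient pairs (0.39 ± 0.14, adjusted p = 0.463). Plk2, a Polo-like kinase induced by mitogens and stress, rose further in deficient cells (0.83 in control and 1.45 in deficient pairs; 0.62 ± 0.08, adjusted p = 0.00107). It rose from a lower unstimulated level there, 33.9, 52.1 and 55.4 CPM against 78.1, 74.2 and 76.8 CPM in control libraries. Stimulated levels overlapped, at 102, 136 and 143 CPM in deficient and 149, 127 and 130 CPM in control libraries.

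A pair of genes of cyclic AMP signalling had larger rises in deficient cells. Pde7a, a cyclic AMP phosphodiesterase of lymphocytes, had pair values of 0.16, 0.19 and 0.19 in control cells, with 0.66, 0.81 and 0.72 in deficient ones (0.55 ± 0.07, adjusted p = 0.000653). Pkib, an inhibitor of protein kinase A, had 0.68, 0.74 and 0.78 and 1.61, 1.04 and 1.28 (0.58 ± 0.12, adjusted p = 0.0481), and its call ended without deficient pair 1 or 3 or control pair 1, 2 or 3 (adjusted p up to 0.313). The pairs of each genotype lay close together for Pde7a, while those of Pkib were spread more widely in deficient cells.

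Genes that tune BCR signalling itself were called in both directions. Fcgr2b (chromosome 1, 170958617 to 170976547, minus strand), the inhibitory Fc receptor of B cells, fell less in deficient cells. Control libraries went from 132, 149 and 145 to 38.9, 41.2 and 46.7 CPM. Deficient libraries went from 187, 218 and 192 to 92.7, 91.4 and 75.0 CPM, above control in both states. The level fell to 0.298 of its unstimulated value in control and 0.433 in deficient pairs (0.54 ± 0.09, adjusted p = 0.00526), and the call ended without control pair 1 or 2 (adjusted p up to 0.0585).

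Fcrl1, an Fc receptor-like B cell surface protein, also fell less (-1.01 in control and -0.57 in deficient pairs; 0.44 ± 0.07, adjusted p = 0.00278). It went from 166, 175 and 164 to 81.4, 85.3 and 83.4 CPM in control and from 161, 188 and 177 to 112, 124 and 117 CPM in deficient libraries. Siglecg, a sialic acid receptor that restrains BCR calcium signals, fell further (-1.97 in control and -2.39 in deficient pairs; -0.42 ± 0.08, adjusted p = 0.0113). Its levels went from 201, 181 and 173 to 49.96, 45.6 and 46.3 CPM in control and from 171, 205 and 201 to 33.5, 41.0 and 35.3 CPM in deficient libraries, and the call ended without control pair 1, 2 or 3 (adjusted p up to 0.0833). Of 23 tested members of a list drawn up for inhibitors of BCR signalling, edgeR called 2 higher and 1 lower, with a median of -0.01. Over all tested genes it called 0.497%. Fcrl1 counts among these inhibitors by list membership only, and its effect on BCR signalling was not tested. Cr2, the complement receptor in the BCR co-receptor complex, rose further in deficient cells. It went from 91.4, 137 and 107 to 336, 469 and 389 CPM in control and from 83.3, 109 and 105 to 449, 495 and 525 CPM in deficient libraries (0.47 ± 0.07, adjusted p = 0.00307). Of 26 BCR complex and signalling genes edgeR called Cr2 alone (median 0.08), and DESeq2 and voom called Nfatc1 as well. Of 19 Notch2 and marginal zone genes edgeR and voom called Cr2 alone (median 0.04), and DESeq2 also called Notch2. Cr2 was the B cell marker called by each of the 3 tools. Nfatc1, a calcium-regulated transcription factor, had 1.30 in control and 1.0 in deficient pairs (-0.30 ± 0.07, adjusted p = 0.0714 in edgeR; 0.000938 in DESeq2 and 0.0258 in voom). Vav1, an exchange factor for Rac, had -0.42 in control and -0.64 in deficient pairs (-0.22 ± 0.07, adjusted p = 0.288).

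Icam1 and Gpr183, which serve adhesion and positioning, were induced less in deficient cells. Icam1 (chromosome 9, 21015985 to 21028817, plus strand), the ligand of LFA-1 in contacts with T cells, stood at 69.8, 80.5 and 80.8 CPM in unstimulated and 243, 244 and 243 CPM in stimulated control libraries. Deficient libraries held 55.2, 65.5 and 62.8 CPM and 122, 139.5 and 121 CPM. Deficient cells were below control in both states, and the stimulated control libraries lay within 243 to 244 CPM. The rise was 3.17-fold in control and 2.09-fold in deficient pairs (-0.60 ± 0.08, adjusted p = 0.00107). Gpr183 (chromosome 14, 121952551 to 121965195, minus strand), or EBI2, the oxysterol receptor that guides activated B cells to the outer follicle, rose from 79.7, 87.4 and 75.7 to 309.7, 322 and 282 CPM in control. It rose from 57.3, 82.0 and 85.5 to 171, 201 and 214 CPM in deficient libraries. Unstimulated levels overlapped, and stimulated ones did not (3.76-fold against 2.63-fold; -0.52 ± 0.08, adjusted p = 0.00295). Of 27 trafficking and adhesion genes, a list without Icam1, edgeR and voom called Gpr183 alone (median -0.11), and DESeq2 also called Ccr6 and Cd55. Over all tested genes edgeR called 0.497%. Cd55, which encodes the complement regulator DAF, fell in both genotypes (-2.996 in control and -3.32 in deficient pairs; -0.33 ± 0.09, adjusted p = 0.155 in edgeR, 0.0184 in DESeq2 and 0.172 in voom). Abr, a regulator of Rac and Cdc42, fell in deficient pairs (-0.37), with 0.13 in control (-0.50 ± 0.10, adjusted p = 0.0287), and its call ended without deficient pair 1, 2 or 3 or control pair 1 or 2 (adjusted p up to 0.263). Rac2, the haematopoietic Rac GTPase, picked after its values were seen, fell less in deficient cells (-1.26 in control and -0.83 in deficient pairs; 0.43 ± 0.07, adjusted p = 0.00370). Its call ended without control pair 1 (adjusted p up to 0.0619).

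**Figure D3:**
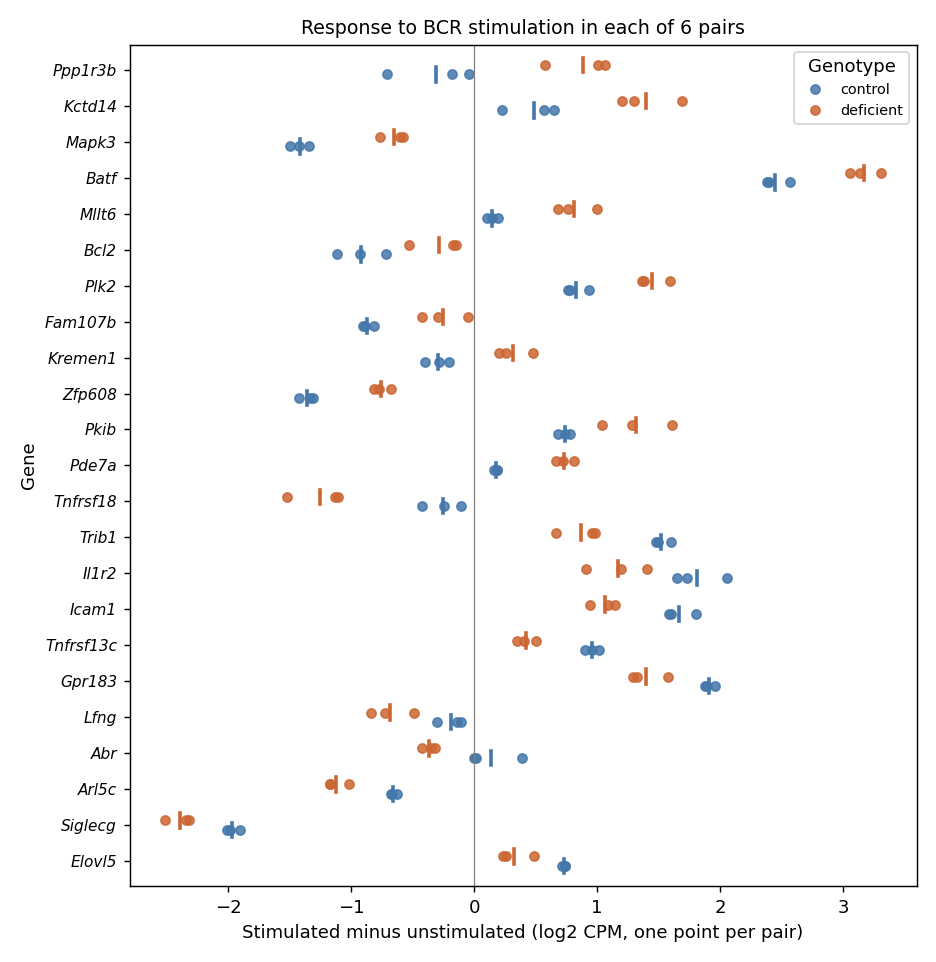
Log2 response to BCR stimulation in each of the 6 pairs (1 point per pair; vertical bars are genotype means) for the 12 largest positive and 11 of the 12 largest negative called differences taken by the naming rule, which leaves out clone-named and predicted genes; control in blue, deficient in orange. The 3 points of each genotype are separated from the other 3 in every row, from Ppp1r3b at 1.17 to Tnfrsf18 at -0.998.

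Receptors for cytokines and costimulation were called in both directions. Tnfrsf18, which encodes the costimulatory receptor GITR, had the largest negative difference. It went from 6.92, 8.48 and 9.94 to 6.43, 6.32 and 8.39 CPM in control and from 7.75, 8.29 and 7.75 to 3.49, 3.81 and 2.65 CPM in deficient libraries (-0.998 ± 0.21, adjusted p = 0.0445). That call ended without each of the 6 pairs in turn (adjusted p up to 0.270). Il1r2, the decoy receptor for IL-1, rose less (3.51-fold in control, 2.25-fold in deficient pairs; -0.64 ± 0.13, adjusted p = 0.0456). Its levels went from 18.7, 23.9 and 24.0 to 77.8, 79.7 and 75.2 CPM and from 21.2, 22.6 and 22.2 to 39.8, 51.7 and 59.0 CPM. The call ended without deficient pair 1 or 2 or control pair 1 or 2 (adjusted p up to 0.270). Il1r2 also missed the threshold with DESeq2's size factors (adjusted p = 0.0857), upper-quartile factors (0.0596) and a filter of 1 CPM in 3 libraries (0.0514). Tgfbr2, the ligand-binding TGF-beta receptor chain, fell in control and rose in deficient pairs (-0.19 and 0.11; 0.30 ± 0.06, adjusted p = 0.0287), a small change whose call ended without deficient pair 2 or control pair 1, 2 or 3 (adjusted p up to 0.305). Slamf7, a homophilic receptor of the SLAM family, rose further in deficient cells (1.47 in control and 1.84 in deficient pairs; 0.37 ± 0.07, adjusted p = 0.0202), and its call ended without deficient pair 2 or control pair 1 or 2 (adjusted p up to 0.208). In the list of 24 cytokine receptor genes edgeR called Tgfbr2 higher and Tnfrsf13c and Il1r2 lower (median -0.04). DESeq2 called 5 members, Ifngr2 and Tnfrsf13b besides these 3, and voom 4, Ifngr2 besides them. In that of 23 activation and costimulation surface genes edgeR called Slamf7 higher and Icam1 and Tnfrsf18 lower (median -0.06). DESeq2 and voom also called Cd69, and DESeq2 gave no adjusted p for Tnfrsf18. These list counts stand beside 0.497% of all tested genes called by edgeR.

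In the NF-kB branch, Malt1, the paracaspase named above, had small responses of opposite sign. Control libraries held 316, 329 and 299.5 CPM unstimulated and 342, 355 and 318 CPM stimulated, and deficient libraries 241, 324 and 304 CPM and 202, 279 and 248 CPM. Control pairs gave 0.11, 0.11 and 0.08 and deficient pairs -0.25, -0.22 and -0.30 (-0.36 ± 0.06, adjusted p = 0.00850), close together within each genotype. The call ended without control pair 1 or 2 (adjusted p up to 0.0847). Malt1 was the only called member of 13 tested Regnase family genes and regulators of Regnase-1 (median -0.01), beside 0.497% of all tested genes called. Tnip1, an A20-binding inhibitor of NF-kB, fell less in deficient cells (-0.60 in control and -0.23 in deficient pairs; 0.38 ± 0.07, adjusted p = 0.0188), and its call ended without deficient pair 2 or control pair 1 or 2 (adjusted p up to 0.196). Tnip1 and Bcl3 were the only called genes among 23 NF-kB subunits and feedback genes, whose median was 0.01. Tnfaip8, also of this list, had -0.16 in control and 0.19 in deficient pairs (0.35 ± 0.09, adjusted p = 0.0945).

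The called genes included some with metabolic roles. Ppp1r3b (chromosome 8, 35375739 to 35388139, plus strand), a glycogen-targeting subunit of protein phosphatase 1, had the largest difference of all 67. It stood at 4.76, 5.55 and 11.3 CPM in unstimulated and 4.20, 3.38 and 11.04 CPM in stimulated control libraries. In deficient libraries it stood at 9.10, 7.42 and 7.03 and 19.1, 11.1 and 14.2 CPM, so it rose 1.85-fold there, against 0.824 times the unstimulated level in control (1.17 ± 0.21, adjusted p = 0.0124). These are low levels, and the call ended without control pair 1 or 2 (adjusted p up to 0.0810). DESeq2 gave no adjusted p for Ppp1r3b. Within each genotype its levels were highest in deficient pair 1 and control pair 3, where neutrophil and monocyte markers were also highest. The part of such cells in its difference was not tested. Elovl5, an elongase of polyunsaturated fatty acids, rose less in deficient pairs (0.73 in control and 0.33 in deficient pairs; -0.40 ± 0.07, adjusted p = 0.0173), and its call ended without control pair 1, 2 or 3 (adjusted p up to 0.137). Fth1, the ferritin heavy chain, picked after its values were seen, fell in control pairs (-0.40, -0.38 and -0.31), with 0.16, -0.02 and 0.01 in deficient ones (0.42 ± 0.06, adjusted p = 0.00320). Egln2, an oxygen-sensing prolyl hydroxylase picked in the same way, fell in control pairs (-0.65, -0.49 and -0.58), with 0.07, -0.19 and -0.10 in deficient ones (0.50 ± 0.08, adjusted p = 0.00370). Its call ended without control pair 1 (adjusted p up to 0.0603). In the glycolysis and nutrient transport list 0 of 21 genes were called by edgeR, DESeq2 or voom (median 0.05; 3 at an unadjusted p under 0.05), with the glucose transporter gene Slc2a1 at 0.32 ± 0.08, adjusted p = 0.139. In cholesterol synthesis 0 of 21 were called by any of the 3 tools (median 0.09; 3 at an unadjusted p under 0.05), with Idi1, which makes dimethylallyl diphosphate, at -0.18 ± 0.07, adjusted p = 0.554. Over all tested genes edgeR called 0.497%.

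The remaining genes with large differences have varied roles. Kremen1, a Dickkopf receptor of the Wnt pathway, fell in control and rose in deficient pairs (-0.30 and 0.32; 0.61 ± 0.11, adjusted p = 0.0102), and its call ended without deficient pair 2 or control pair 1 or 3 (adjusted p up to 0.104). Lfng, the Fringe glycosyltransferase that modifies Notch, fell further in deficient cells (-0.18 in control and -0.69 in deficient pairs; -0.50 ± 0.09, adjusted p = 0.00872), and its call ended without deficient pair 2 or control pair 1 or 2 (adjusted p up to 0.1003). Fam107b fell less in deficient cells (-0.87 in control and -0.25 in deficient pairs; 0.61 ± 0.08, adjusted p = 0.00117). Arl5c, an ARF-like GTPase, fell further (-0.66 in control and -1.12 in deficient pairs; -0.46 ± 0.07, adjusted p = 0.00307). Kctd14 rose further in deficient cells from low levels, 6.78, 7.62 and 8.82 to 10.1, 8.94 and 13.9 CPM in control and 9.32, 7.09 and 8.61 to 30.2, 17.6 and 19.9 CPM in deficient libraries (0.93 ± 0.18, adjusted p = 0.0202). Its call ended without deficient pair 1 or 2 or control pair 1 or 2 (adjusted p up to 0.129). Rictor, the defining subunit of mTORC2, and Cdc27, a subunit of the anaphase-promoting complex, were picked after their values were seen. Rictor fell in control and rose in deficient pairs (-0.14 and 0.29; 0.43 ± 0.08, adjusted p = 0.0230), with its call ending without deficient pair 2 or control pair 1, 2 or 3 (adjusted p up to 0.190). Cdc27 likewise fell and rose (-0.25 and 0.30; 0.55 ± 0.08, adjusted p = 0.00274).

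The list of 18 tested transcripts reported as Regnase-1 targets held 1 called gene, Batf, beside 0.497% of all tested genes called by edgeR. The list's median difference of responses was -0.12, against 0.03 over all genes. Nfkbiz (chromosome 16, 55811375 to 55838899, minus strand), which encodes the atypical IkB protein IkB-zeta, showed a separation of levels with no called difference of responses. Control libraries held 81.9, 91.1 and 87.1 CPM unstimulated and 294, 292 and 300.4 CPM stimulated. Deficient libraries held 230.5, 249.5 and 264 CPM and 882, 1026 and 948 CPM. Deficient levels lay far above control levels in both states. The rise was 3.41-fold in control and 3.84-fold in deficient pairs (0.17 ± 0.07, adjusted p = 0.559). Tfrc, the transferrin receptor gene, had 2.08 in control and 1.73 in deficient pairs (-0.35 ± 0.15, adjusted p = 0.698). Among 18 tested mRNA-destabilizing and decay factors edgeR called 0 (median -0.05; 3 at an unadjusted p under 0.05), while DESeq2 and voom called 1, Zfp36l1. That gene, which encodes an AU-rich element binding protein, had 0.48 in control and 0.22 in deficient pairs (-0.25 ± 0.07, adjusted p = 0.152), and its relative Zfp36 had -0.21 in control and -0.40 in deficient pairs (-0.19 ± 0.07, adjusted p = 0.477). Rc3h1, encoding Roquin-1, which binds similar stem-loops, had 0.52 in control and 0.33 in deficient pairs (-0.19 ± 0.07, adjusted p = 0.496).

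**Figure D4:**
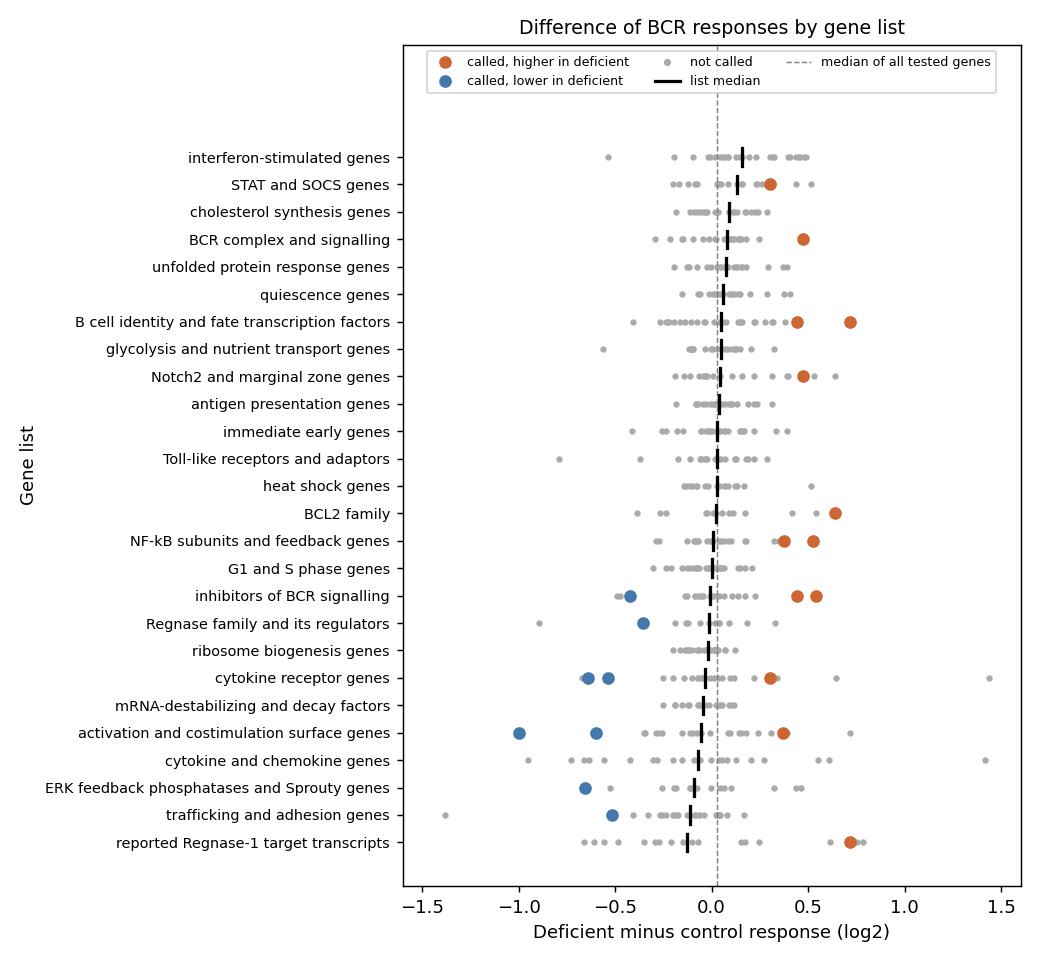
Difference of BCR responses (log2, deficient minus control) for every tested member of 26 gene lists; orange and blue points are called higher and lower, grey points are not called, black bars are list medians and the dashed line is the median of all tested genes (0.03). List medians lie between -0.12 and 0.16, and no list holds more than 3 called genes. Over all tested genes 0.497% were called.

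Most of the large programs of B cell activation held no called gene, beside 0.497% of all tested genes called by edgeR. At that share most lists of this size would hold none, so these counts are no result about the lists. By edgeR, DESeq2 and voom alike, 0 were called among 29 genes of G1 and S phase (median 0.00), 27 of ribosome biogenesis (-0.02), 22 of the unfolded protein response (0.08) and 19 heat shock genes (0.03). At an unadjusted p under 0.05 in edgeR there were 0, 2, 5 and 1, beside 1007 of all 13468 tested genes. Ccnd2, the D-type cyclin induced by the BCR, rose by 2.69 in control and 2.39 in deficient pairs (-0.30 ± 0.14, adjusted p = 0.717). Ncl, encoding nucleolin, rose by 2.06 in control and 1.86 in deficient pairs (-0.20 ± 0.07, adjusted p = 0.412). Stimulation raised both genes in each genotype. EdgeR and voom called 0 of 23 quiescence genes (median 0.06; 2 at an unadjusted p under 0.05), and DESeq2 called 1, Bcl11a. Bcl11a, a lymphoid transcription factor, had -1.27 in control and -0.90 in deficient pairs (0.37 ± 0.10, adjusted p = 0.141). EdgeR called 0 of 22 antigen presentation genes (median 0.04; 2 at an unadjusted p under 0.05), and DESeq2 and voom called 1, Ctss. Ctss, the cathepsin that trims the invariant chain, lay near the threshold in edgeR (-0.67 in control and -0.35 in deficient pairs; 0.31 ± 0.07, adjusted p = 0.0559). Of 20 Toll-like receptor and adaptor genes edgeR called 0 (median 0.03; 3 at an unadjusted p under 0.05), and DESeq2 and voom 1, the adaptor gene Ticam2 (0.85 in control and 0.06 in deficient pairs; -0.79 ± 0.19, adjusted p = 0.0784 in edgeR), which shares exon bases with Tmed7 on the same strand. All 3 tools called 0 of 23 cytokine and chemokine genes (-0.07; 4 at an unadjusted p under 0.05).

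Interferon-stimulated genes had the highest median of the 26 lists, 0.16, with 23 of 28 members above 0 and 0 called by edgeR, DESeq2 or voom (4 at an unadjusted p under 0.05). Ifih1, the RNA sensor MDA5, rose by 2.29 in control and 2.77 in deficient pairs (0.48 ± 0.16, adjusted p = 0.346). Usp18, which restrains interferon receptor signalling, rose by 3.06 in control and 3.52 in deficient pairs (0.46 ± 0.14, adjusted p = 0.343). Of 21 tested STAT and SOCS genes edgeR called Stat3 alone, with a median of 0.13, and DESeq2 and voom called Jak2 as well. Jak2, the kinase upstream of several STATs, had 0.11 in control and 0.39 in deficient pairs (0.28 ± 0.06, adjusted p = 0.0686 in edgeR; 0.0264 in DESeq2 and 0.0338 in voom). These medians were described and not tested, and edgeR called 0.497% of all tested genes.

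The spread between pairs of a genotype is described here, while the SEs above come from the edgeR fit. Over 7296 genes whose log2 CPM averaged 4 or more, the SD of the pair values around their genotype mean was 0.123, 0.106 and 0.125 log2 in deficient pairs 1 to 3 and 0.0951, 0.0924 and 0.104 in control pairs. Each mean included the pair itself, so these SDs understate the spread between pairs. The median response over all tested genes was -0.02 in deficient pair 1 and -0.08 to -0.12 in the other 5 pairs. Only 21 of the 67 calls stayed past the threshold when each pair was left out in turn. Among them were Mapk3, Batf, Mllt6, Plk2, Pde7a, Zfp608, Fam107b, Cr2, Fcrl1, Zeb2, Cdc27 and Fth1 with positive and Icam1, Tnfrsf13c, Gpr183, Trib1 and Arl5c with negative differences. Without the block on pairs the same test called 1 gene, Mapk3. Of a single gene taken alone, an exact permutation test of 3 against 3 pair values cannot give a two-sided p below 0.1.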

How the data were processed

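For each RNA-seq library of splenic B cells the authors deposited a table of read counts by gene symbol. TopHat, HTSeq and the mm10 build are named, without versions, in the submitters' processing notes. The log2 values the authors also deposited, for which those notes name DESeq2, served as an alternative; their exact transformation and the counting's annotation, strandedness and treatment of multi-mapping reads are not given in the sources used here. The tables held 23337 symbols, 1 of them with a missing cell and left out. No libraries of a group agreed within sampling noise (chi-square per gene 9.64 to 36.1).

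EdgeR 4.0.16 (R 4.3.3) tested the counts: filterByExpr by group (minimum count 10, 13468 genes), TMM factors and a robust quasi-likelihood fit of 12 libraries with a block for each of the 6 pairs and a stimulation term per genotype, leaving 4 residual degrees of freedom. The contrast was the deficient minus the control term, and SE is the log2 value over the root of F. Pair values are log2 CPM with a prior count of 2. Across 7296 genes, deviations of same-numbered libraries from their group means correlated at r = 0.78, 0.72 and 0.51 in deficient and 0.74, 0.62 and 0.59 in control cells, so the numbers were taken as pairs. The procedure was tested on simulated data. Named are Zc3h12a, the 12 largest called differences of each sign and mean log2 CPM of 2 or more (no immunoglobulin, T cell receptor or unnamed gene models), and per list the called members and up to 3 with the smallest p; other genes were chosen after their values were seen, among them those named by the direction of their responses. Of the genes this rule takes, 1 is not reported here. The pairs and lists were chosen with earlier results of these data known, and list counts and medians carry no test. Counts of called list members are to be read beside the 67 of 13468 genes (0.497%) that edgeR called. Coordinates and 3' untranslated regions are from GENCODE vM21 (mm10), which matched 90.2% of tested symbols. RNAs annotated on the opposite strand overlap exons of Bcl2, Zfp608, Pde7a, Tnfrsf18, Icam1, Abr, Bcl3, Fcgr2b, Slamf7, Zeb2, Ksr1, Jun, Zfp36, Zfp36l1, Bcl11a, Ccnd2, Slc2a1, Tnfaip8, Idi1, Usp18, Ebi3, Rgs16, Nek7, Tes and Cd55. Ms4a6c, Ncl, AA467197 and Gm15987 also share exon bases with noncoding RNAs. Ticam2 shares 838 exon bases with Tmed7 on the same strand, and Foxp1 shares exons with Gm20696. Opposite-strand coding genes overlap Egln2, Stat3, Ranbp9, Irf5, Plek, Pitrm1, Fchsd2 and Ppfibp2. The levels of all these genes are uncertain. Alternatives were DESeq2 1.42.0, other scalings and filters, a minimum fold, limma 3.58.1 on pair differences, no block, leaving out each pair, and limma voom, added after the data were seen. The floor of 3 counts covers counting error only.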

Additional observations from a re-analysis of the deposited data

Results flagged for a closer look

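Of the 67 genes called for the difference of responses, 66 are given here because their BCR response differed between the genotypes by the test of the difference itself; values are log2, deficient minus control. Genes that remained past the threshold without each of the 6 pairs in turn had positive differences of Mapk3 0.77, Batf 0.72, Mllt6 0.66, Plk2 0.62, Fam107b 0.61, Zfp608 0.60, Pde7a 0.55, Cdc27 0.55, Tes 0.52, Tbl1x 0.51, Nek7 0.50, Cr2 0.47, Fcrl1 0.44, Zeb2 0.44, Tle4 0.43 and Fth1 0.42, and negative differences of Trib1 -0.66, Icam1 -0.60, Tnfrsf13c -0.54, Gpr183 -0.52 and Arl5c -0.46. Genes that remained past it in 3 to 5 of the 6 fits that leave out a pair had positive differences of Ppp1r3b 1.17, Kremen1 0.61, Fcgr2b 0.54, Ms4a6c 0.52, Lmo2 0.51, Ksr1 0.51, Egln2 0.50, Rac2 0.43, Nsf 0.40, Apbb1ip 0.39, Pxn 0.38, Tnip1 0.38 and Slamf7 0.37, and negative differences of AA467197 -0.82, Lfng -0.50, Siglecg -0.42, Elovl5 -0.40 and Malt1 -0.36. Genes that remained past it in at most 2 of the 6 fits had positive differences of Kctd14 0.93, Gm15987 0.69, Bcl2 0.64, D8Ertd82e 0.64, Pkib 0.58, Ppfibp2 0.53, Bcl3 0.53, BC035044 0.51, Zfp217 0.45, Rictor 0.43, Ranbp9 0.40, Pmepa1 0.40, Abcc1 0.38, Fchsd2 0.36, Bcor 0.35, Pitrm1 0.34, Lgmn 0.31, Stat3 0.30 and Tgfbr2 0.30, and negative differences of Tnfrsf18 -0.998, Il1r2 -0.64, Abr -0.50, Samsn1 -0.37, Myo1e -0.36, Gpr132 -0.35, Plek -0.34 and Irf5 -0.32.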

How the results depend on the processing

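All 67 calls kept their sign in every fit to the counts, and 66 of 66 with a value kept it on the deposited log2 values, but the number of calls moved with the setting. Without the replicate block, edgeR called 1 gene, Mapk3, in 12 and 1 in all 13 libraries, so the other calls depend on the pairing by number. With the block, DESeq2 called 144 (67 higher, 77 lower), DESeq2's size factors in edgeR 115 (58 and 57), upper-quartile factors 104 (54 and 50), no low count filter 208 (115 and 93), 1 CPM in 3 libraries 59 (40 and 19) and limma voom 96 (64 and 32). Of the 67, 65 were called in DESeq2, 67 in voom, 64 with DESeq2's factors and 65 with upper-quartile factors. Limma on the pair differences called 0 (900 at an unadjusted p under 0.05, smallest adjusted p 0.485) and on the deposited log2 values 1, and a minimum fold of 1.5 left 0 (74 at an unadjusted p under 0.05). Leaving out 1 pair gave 28 to 90 calls, 21 to 68 higher and 6 to 33 lower: 73, 36 and 90 without deficient pair 1, 2 or 3 and 28, 30 and 48 without control pair 1, 2 or 3. Counts of genes called for the response of either genotype stayed within 7819 to 9139, the lowest without the block. The threshold decided several single genes. Il1r2 missed it with DESeq2's size factors, upper-quartile factors and 1 CPM in 3 libraries, Lgmn with these 3 as well, Pitrm1 with DESeq2's size factors, and Pkib, Bcl3, Stat3, BC035044, Fchsd2, Gm15987 and Pmepa1 with 1 CPM in 3 libraries. Without the low count filter 21 named genes outside the 67 passed. The cause of these shifts was not tested. At 21407729 or more counts per library, 3 counts are at most 0.140 CPM, and with 3 pairs per genotype most called differences lay under 1.5-fold.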

Other observations

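Some genes had responses of unlike size or sign without passing the test of the difference, with Rgs16 and Il18 among them at low levels. Rgs16, a regulator of G protein signalling, rose in control pairs (1.09, 1.15 and 0.95), with -0.53, -0.40 and 0.10 in deficient pairs, and its level went from 1.47, 1.14 and 1.64 to 3.20, 2.62 and 3.25 CPM in control and 1.85, 2.45 and 2.12 to 1.25, 1.84 and 2.28 CPM in deficient libraries (-1.38 ± 0.36, adjusted p = 0.139). Il18, which encodes an inflammasome-processed cytokine, rose in deficient pairs (2.25, 1.84 and 1.25), with 0.44, 0.23 and 0.53 in control, and its level went from 1.17, 1.14 and 1.68 to 1.61, 1.34 and 2.46 CPM in control and 0.772, 0.988 and 1.58 to 3.94, 3.72 and 3.85 CPM in deficient libraries (1.41 ± 0.40, adjusted p = 0.198). Adm, encoding the peptide adrenomedullin, rose in both genotypes (2.23 in control and 1.503 in deficient pairs; -0.73 ± 0.21, adjusted p = 0.215). Ebi3, the shared subunit of IL-27 and IL-35, also rose in both (1.92 in control and 1.28 in deficient pairs; -0.64 ± 0.20, adjusted p = 0.365). Fcrl5, an Fc receptor-like gene of marginal zone and B-1 cells, fell in control and rose in deficient pairs by the test in each genotype (-0.27 and 0.26), while the difference did not pass (0.53 ± 0.15, adjusted p = 0.199). Without the low count filter the differences of Rgs16, Il18, Adm, Ebi3 and Fcrl5 passed, at adjusted p from 0.00151 to 0.0364.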
